A study of Mus musculus with 24 samples.

Results

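The amino acid stress genes described here are 33 mouse genes tied to the transcription factor ATF4: stress factors and effectors, serine and one-carbon enzymes, other amino acid enzymes and amino acid transporters. They were chosen by gene symbol from a list drawn up with earlier results of these data known, though the rule itself uses no measured value. All 33 were found among the 55487 genes of the count table and all 33 were among the 18931 genes that passed the filter on low counts. RNA-seq was done on 24 libraries of Lin-Sca1+KIT+ (LSK) cells, the marrow or liver fraction enriched for haematopoietic stem cells and early progenitors. The cells came from control mice or from mice with Tet-On MLL::ENL (ME), a drug-inducible leukaemia fusion of the MLL (Kmt2a) and ENL (Mllt1) genes. The 6 groups, of 4 libraries each, were ME and control cells from fetal liver at embryonic day 16 (E16), from bone marrow at postnatal day 14 (P14) and from bone marrow at 8 weeks (8wk). In each design the fusion was induced in culture and the cells were cultured for 48 h. Age and tissue cannot be told apart at E16. The labels give no strain, no inducing agent and no promoter of the transgene, and do not tie replicates to animals or cultures, so each p-value speaks only of the spread among these libraries, part of which could be technical.

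ATF4 is a basic leucine zipper factor whose protein is made when eIF2 alpha is phosphorylated, for example by the kinase GCN2 when amino acids run short or by PERK during stress of the endoplasmic reticulum (ER). Much of its control is at translation, so the level of Atf4 mRNA is not a measure of ATF4 activity. With partners such as CEBPG it binds composite CEBP-ATF sites, also called amino acid response elements, and turns on genes that make and import amino acids, while its targets Atf3, Ddit3, Trib3, Chac1 and Ppp1r15a shape or limit the stress response.

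The composite site gives a sequence that can be looked for in the genes themselves. The letters TGATGNAA, where N is any base, and their reverse complement TTNCATCA were searched on both strands of RefSeq promoter windows (GRCm38.p6), from 250 bases before to 50 after each start. Of the 33 members 28 had a window in that table, and 9 of these held a match. Over all 27025 symbols with a window 4.51% held one, and over all 32851 windows 3.97%. The matched stretches are given 5′ to 3′ on the gene's strand with each match in capitals, to set the letters beside the calls given further on. Of the 6 members called higher at 8wk with a window, 4 held a match (Atf3, Nupr1, Trib3 and Chac1), and of the 12 called lower at E16 with a window, 2 did (Asns and Got1). Of the 6 called lower at P14 with a window, 1 did (Got1). The 1 member with a window called higher at E16, higher at P14 or lower at 8wk held none. Members were chosen as genes tied to ATF4, so a share above that of all symbols is partly built into the list. Whether matches go with calls was not tested.
Atf3: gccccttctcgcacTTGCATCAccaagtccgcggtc
Nupr1: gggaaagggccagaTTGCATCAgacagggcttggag
Trib3: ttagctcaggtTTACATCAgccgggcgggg
Chac1: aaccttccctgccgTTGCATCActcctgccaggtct
Asns: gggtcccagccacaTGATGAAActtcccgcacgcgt
Got1: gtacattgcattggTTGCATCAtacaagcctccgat
Pycr1: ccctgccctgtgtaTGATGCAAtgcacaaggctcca
Slc1a4: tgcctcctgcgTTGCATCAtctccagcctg
Slc7a11: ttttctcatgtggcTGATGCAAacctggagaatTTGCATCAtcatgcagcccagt

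The stretches lie at chr1:191183422-191183457 (Atf3, minus strand), chr7:126625559-126625594 (Nupr1, minus), chr2:152344028-152344057 (Trib3, minus) and chr2:119351035-119351070 (Chac1, plus). Those of Asns, Got1, Pycr1, Slc1a4 and Slc7a11, all on the minus strand, lie at chr6:7693211-7693246, chr19:43524686-43524721, chr11:120643830-120643865, chr11:20332699-20332728 and chr3:50443639-50443693. In Trib3 the match begins 15 bases into the transcript, in Slc1a4 it spans the start, and in the other 7 it lies 15 (Asns) to 185 (Chac1) bases upstream. These starts are RefSeq's and differ from those of the GENCODE gene spans given with some genes further on: by the GENCODE spans the Trib3 match lies before the gene and the Asns match inside it. The Atf3 and Nupr1 matches also lie inside the GENCODE spans, chr1:191170296-191218039 and chr7:126623249-126630861. The Slc7a11 window, in the gene for the cystine importer xCT, was the only member window with 2 matches, on opposite strands. A match is a description of letters and not evidence that ATF4 was bound there.

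Library totals ran from 33.9 to 69.3 M counts. Values are CPM, counts scaled to a common library size with TMM factors, and a gene was called when its edgeR adjusted p over all genes was under 0.05. Kmt2a, Mllt1 and Skida1, the gene in the series title, were each called higher in ME at all 3 ages, as a check of the labels. Skida1 was at 13.5 ± 2.21 CPM in ME and 0.646 ± 0.190 in controls at E16 (SD, n = 4), 7.96 ± 2.70 and 0.403 ± 0.150 at P14, and 2.03 ± 0.331 and 0.411 ± 0.135 at 8wk. Mllt1 had log2 fold changes of 1.54, 1.60 and 1.48 and Kmt2a of 0.85, 1.03 and 0.73. Counts per gene do not separate fusion reads from those of the endogenous genes. All 9 LSK markers listed for the check had counts in every library, Kit from 376 to 1763 CPM. In myeloid markers 3 libraries lay far from the rest of their groups, given here as the summed CPM of 8 mature neutrophil and 10 monocyte and macrophage genes. For neutrophil genes E16 ME replicate 4 held 42.7 against 863 to 1054 in the other E16 ME libraries, 8wk ME replicate 4 held 40.1 against 907 to 1477, and 8wk control replicate 1 held 862 against 18.7 to 33.3. The monocyte sums split in the same way, at 107, 161 and 868 CPM in these libraries against 503 to 605, 948 to 1147 and 164 to 198. E16 control replicate 1 also stood apart, as the highest library within a group that was high throughout, at 5968 CPM for neutrophil and 1371 for monocyte genes against 1120 to 1863 and 475 to 563 in the other E16 controls. Counts of the 33 members are therefore given with and without the first 3 libraries, and for E16 without all 4, choices made after the values were seen. In bulk RNA fewer cells of a type and less RNA per cell cannot be told apart.

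In fetal liver cells 13 of the 21 amino acid enzymes and transporters were lower in ME. At E16 14 of 33 members fell and 1 rose, where 8.47% of all genes tested were lower and 13.3% higher. All 3 serine synthesis enzymes and all 3 mitochondrial one-carbon enzymes fell, as did 3 of 6 other amino acid enzymes, 4 of 9 transporters and the translation repressor Eif4ebp1. In 17 members all 4 ME libraries lay below all 4 controls. The share of all genes whose libraries separate in this way was not counted at any age. Such counts therefore describe the members only. The members' median log2 fold change was -0.46, against 0.02 over all genes tested. With libraries scaled by their totals alone, the share of called genes that were higher went from 61.1% to 74.6% at E16 and from 57.5% to 70.5% at P14.

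Phgdh, the first enzyme of serine synthesis from glucose, had the highest level per kilobase of exon of all 33 members, 389 CPM per kb over the 24 libraries. In E16 ME replicates 1 to 4 it stood at 759, 786, 923 and 668 CPM, and in controls at 1289, 1432, 1218 and 1138 CPM. The groups did not overlap, and Phgdh fell by 0.70 ± 0.16 log2 (SE; adjusted p = 0.00296). Psat1 (ENSMUSG00000024640, chr19:15904678-15947337), the aminotransferase of the next step, was at 510, 475, 453 and 332 CPM in ME and at 718, 745, 736 and 724 in controls. It fell by 0.72 ± 0.16 log2, a 1.65-fold drop (adjusted p = 0.00236). Psph, the phosphatase that releases serine, was at 97.4, 86.9, 81.9 and 80.6 CPM against 117, 115, 114 and 126, and fell by 0.45 ± 0.13 log2 (adjusted p = 0.0143).

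The mitochondrial enzymes that take the carbon from serine followed. Shmt2, which cleaves serine to glycine and loads the carbon on folate, was at 367, 392, 450 and 374 CPM in E16 ME and at 672, 689, 617 and 577 in controls, a change of -0.69 ± 0.20 log2 (SE; adjusted p = 0.0152). Mthfd2, the dehydrogenase and cyclohydrolase, was at 72.6, 77.3, 81.1 and 46.4 CPM against 139, 129, 116 and 120, a change of -0.86 ± 0.24 log2 (adjusted p = 0.0145). Replicate 4 was the lowest ME library, and without it the Mthfd2 call was lost (adjusted p = 0.0585). Mthfd1l, which releases formate, stood at 93.7, 109, 124 and 106 CPM against 165, 179, 162 and 163 and had the smallest adjusted p of the 33 members at E16 (-0.63 ± 0.11 log2; 2.40e-04).

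Among the other amino acid enzymes Asns (ENSMUSG00000029752, chr6:7675169-7693254), the asparagine synthetase, showed the largest drop, to 158, 155, 159 and 56.7 CPM from 312, 324, 302 and 280, a change of -1.21 ± 0.42 log2 (SE; adjusted p = 0.0480). The 4 ME libraries all lay below the controls, but the call was near the threshold and was lost on leaving out any single library of either E16 group (adjusted p from 0.0612 to 0.144). Aldh18a1, which makes the precursor of proline, stood at 193, 208, 255 and 200 CPM against 320, 329, 316 and 277 (-0.54 ± 0.13 log2; adjusted p = 0.00602). Got1, the cytosolic aspartate aminotransferase, stood at 77.8, 78.2, 80.4 and 61.3 CPM against 103, 113, 107 and 115 (-0.56 ± 0.12 log2; adjusted p = 0.00285). Neither gene's ME libraries overlapped its controls. Pycr1, Gpt2 and Cth, enzymes of proline, alanine and cysteine synthesis, did not pass the test, at -0.46 ± 0.33, -0.17 ± 0.31 and -0.16 ± 0.59 log2.

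The transporters that fell at E16 carry glycine, cationic and neutral amino acids. Slc6a15 (ENSMUSG00000019894, chr10:103367783-103419377, GRCm38), a carrier of branched-chain amino acids and proline, was at 2.26, 0.762, 0.786 and 1.10 CPM in ME and at 3.91, 3.14, 4.42 and 4.29 in controls, a drop of 1.69 ± 0.30 log2 (SE; adjusted p = 3.15e-04). Slc6a9, the glycine transporter GLYT1, was at 3.04, 2.57, 2.47 and 2.51 CPM against 6.79, 5.75, 5.67 and 4.54 (-1.10 ± 0.32 log2; adjusted p = 0.0170). Both groups of libraries were fully apart in each gene. Slc3a2, the heavy chain shared by several exchangers, was at 228, 226, 231 and 168 CPM against 300, 306, 295 and 269 (-0.46 ± 0.15 log2; adjusted p = 0.0343). Without ME replicate 4 its adjusted p was 0.128, and without control replicates 1, 2 or 3 it was 0.0655, 0.0767 and 0.0673. With libraries scaled by their totals alone it was 0.0591. Slc7a1, the arginine and lysine carrier, was at 80.8, 88.8, 97.7 and 83.3 CPM against 126, 130, 105 and 108 (-0.42 ± 0.15 log2; adjusted p = 0.0453), and its call was lost in 6 of the 8 fits without 1 library (all but those without ME replicate 3 or control replicate 3; adjusted p from 0.0529 to 0.121). The Slc7a1 call was also lost with scaling by totals, with no filter, with limma-voom and with the GC correction (adjusted p from 0.0511 to 0.126). Slc7a11, Slc1a4 and Slc7a5, importers of cystine, of small neutral and of large neutral amino acids, had log2 fold changes of -1.09 ± 0.64, -0.76 ± 0.34 and 1.31 ± 0.59 that did not pass the test.

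Among stress effectors at E16, Eif4ebp1, which holds back cap-dependent translation, was at 77.6, 69.4, 79.8 and 61.2 CPM in ME and at 124, 123, 116 and 113 in controls (-0.73 ± 0.20 log2 (SE); adjusted p = 0.0117). Trib3, Chac1 and Stc2 did not pass the test, at -0.30 ± 0.38, -0.87 ± 0.65 and -1.03 ± 0.73 log2. Of the transcription factors 1 was called, and in the other direction. Cebpg, the ATF4 partner, was at 76.0, 80.8, 70.3 and 71.6 CPM in ME and at 60.3, 51.4, 38.2 and 28.2 in controls, a rise of 0.75 ± 0.22 log2 (adjusted p = 0.0194). All ME libraries lay above the controls, whose levels fell in order of replicate number. The call was lost without control replicate 3 or 4 (adjusted p = 0.0617 and 0.0731), and with E16 control replicate 1 left out 2 members were called higher in place of 1. Atf4 itself was at 49.5, 45.0, 46.6 and 34.1 CPM in ME and at 77.8, 69.7, 59.7 and 59.5 in controls. Its libraries did not overlap, but the change of -0.61 ± 0.25 log2 did not pass the test (adjusted p = 0.0858).

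Marker lists moved with the E16 groups. Neutrophil sums were 42.7 to 1054 CPM in ME and 1120 to 5968 in controls, megakaryocyte and platelet sums (7 genes) 75.9 to 94.0 against 207 to 540, and mast cell and basophil sums (7 genes) 21.1 to 77.1 against 71.8 to 105. B lineage sums (7 genes) went the other way, 71.6 to 188 CPM in ME against 55.7 to 70.1 in controls. No gene of these lists was at 0 over an E16 group. Their part in the falls was not tested. Without E16 ME replicate 4 alone, Mthfd2, Asns, Slc7a1 and Slc3a2 were not called (edgeR adjusted p = 0.0585, 0.144, 0.107 and 0.128). Without the 3 libraries that stand apart, 14 members were again lower and 1 higher, where 7.72% and 11.7% of all genes were called. That fit also leaves out 8wk libraries, which are not in this comparison but enter the shared spread. Asns stood at -0.95 log2 in both fits, with an adjusted p of 0.00479 in the second. Without E16 control replicate 1 as well, 12 were lower and 2 higher, where 6.46% and 11.7% of all genes were called, and Slc7a1 and Slc3a2 were not called (adjusted p = 0.0692 and 0.0817).

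**Figure D1:**
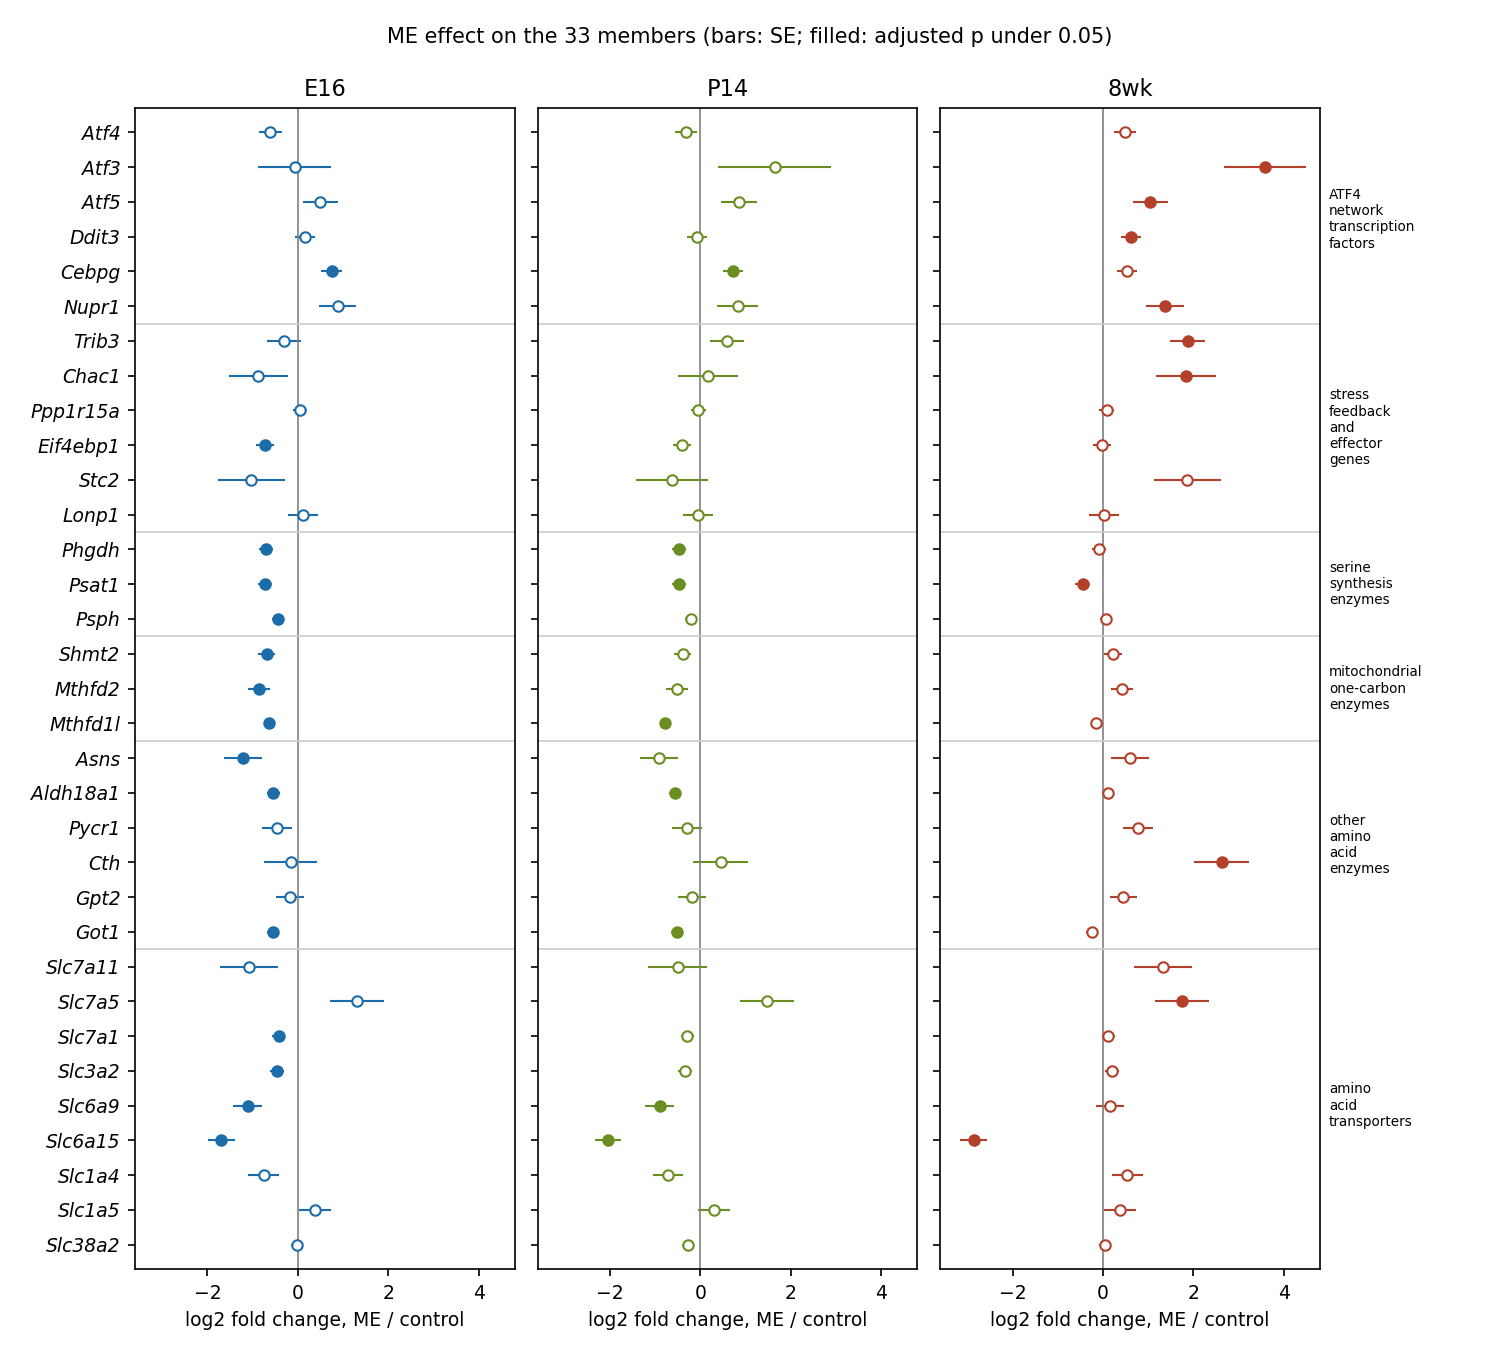
Log2 fold change of ME against control for each of the 33 members at E16, P14 and 8wk, with bars of 1 SE and filled points where the edgeR adjusted p was under 0.05. The enzyme and transporter rows lie mostly left of 0 at E16 and P14, while Atf3, Trib3, Chac1 and Cth lie far to the right at 8wk and Slc6a15 lies to the left at all 3 ages.

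In P14 marrow cells a shorter set of the same genes was lower. There 7 of 33 members fell and 1 rose, where 9.35% of all genes were lower and 12.7% higher, and the median log2 fold change was -0.29 against 0.03 over all genes. All 7 were among the 14 lower at E16: Phgdh, Psat1, Mthfd1l, Aldh18a1, Got1, Slc6a9 and Slc6a15. In 11 members all 4 ME libraries lay below all 4 controls and in 1, Trib3, above them. Neutrophil sums were low in both P14 groups, 4.54 to 11.6 CPM in ME and 6.97 to 45.6 in controls, and monocyte sums were 66.5 to 146 and 56.6 to 116. Mast cell and basophil sums were 10.9 to 41.9 CPM in ME and 36.0 to 107 in controls, erythroid sums (9 genes) 238 to 343 and 314 to 402, and B lineage sums 38.4 to 326 and 39.9 to 44.1. At 0 over the P14 controls were C1qa and C1qb of the monocyte list and Mcpt4 of the mast cell list. The part of these cells in the P14 values was not tested.

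Mthfd1l was at 112, 117, 120 and 96.4 CPM in P14 ME and at 170, 172, 209 and 212 in controls, a drop of 0.78 ± 0.11 log2 (SE; adjusted p = 2.22e-05). Slc6a15 was at 3.20, 2.08, 2.32 and 1.91 CPM against 10.7, 12.4, 7.95 and 8.25, a 4.12-fold drop (-2.04 ± 0.29 log2; adjusted p = 3.13e-05). Aldh18a1 was at 258, 228, 224 and 196 CPM against 312, 300, 370 and 355 (-0.56 ± 0.13 log2; adjusted p = 0.00413). In each of these 3 genes the groups stood apart. Got1 was at 81.7, 82.1, 72.9 and 70.3 CPM against 102, 111, 109 and 120 (-0.52 ± 0.12 log2; adjusted p = 0.00428). These 4 calls held in every alternative run.

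The other calls at P14 were nearer the threshold. Phgdh was at 941, 780, 751 and 646 CPM against 992, 979, 1329 and 1001 (-0.46 ± 0.16 log2 (SE); adjusted p = 0.0368), with control replicate 3 well above the rest. Its call was lost without ME replicates 2, 3 or 4 or control replicates 3 or 4 (adjusted p from 0.0526 to 0.150). Psat1 was at 420, 419, 354 and 328 CPM against 528, 571, 462 and 544 (-0.47 ± 0.16 log2; adjusted p = 0.0370), and was not called without ME replicates 3 or 4 or control replicates 2 or 4 (adjusted p from 0.0844 to 0.107). With the replicate number as a block, which pairs ME and control libraries at P14, neither was called (adjusted p = 0.0808 for Phgdh and 0.0698 for Psat1). The members lower in that fit were Mthfd1l, Slc6a15, Aldh18a1, Got1 and Slc6a9. Slc6a9 was at 4.45, 3.88, 3.04 and 2.90 CPM against 7.30, 6.01, 7.20 and 6.06 (-0.90 ± 0.32 log2; adjusted p = 0.0472), and its call was lost without any 1 of 7 libraries. Cebpg rose to 67.8, 84.8, 83.3 and 86.4 CPM from 71.6, 56.7, 37.7 and 30.2 (0.72 ± 0.22 log2; adjusted p = 0.0235), and here the groups overlapped through ME replicate 1 and control replicate 1. Without ME replicates 2 or 4 or control replicates 3 or 4 it was not called (adjusted p from 0.0541 to 0.0941). In the blocked fit 2 members were higher in place of 1, the addition being the leucine importer Slc7a5 (1.75 ± 0.37 log2; adjusted p = 0.00595). The count of 7 lower members became 4 without P14 ME replicate 3, without ME replicate 4 or without control replicate 4, and the 1 higher became 0 without ME replicate 2 or 4 or control replicate 3 or 4 and 3 without control replicate 1. With the spread estimated from the 21 libraries left after taking out the 3 that stand apart, none of which is a P14 library, 13 were lower and 2 higher, where 11.6% and 14.6% of all genes were called.

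In adult marrow cells 6 of the 12 stress factors and effectors were higher in ME. At 8wk 8 members rose and 2 fell, where 14.2% of all genes were higher and 14.3% lower. The 8 that rose were stress factors and effectors (Atf3, Atf5, Ddit3, Nupr1, Trib3, Chac1), the cysteine enzyme Cth and the transporter Slc7a5. The median log2 fold change was 0.42, against -0.02 over all genes, and 27 of the 33 fitted values lay above 0. Of the serine enzymes Psat1 fell, and Phgdh and Psph did not pass the test, at -0.09 ± 0.16 and 0.06 ± 0.13 log2. In 2 members all 4 ME libraries lay above the controls (Nupr1 and Cebpg), and in 1, Slc6a15, below them.

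Trib3 (ENSMUSG00000032715, chr2:152337422-152344032), a pseudokinase that dampens ATF4 and AKT signalling, stood at 88.1, 42.4, 28.8 and 16.3 CPM in 8wk ME and at 21.5, 7.63, 7.51 and 11.3 in controls. Only ME replicate 4 lay within the control range. Trib3 rose by 1.87 ± 0.39 log2, a 3.66-fold rise (SE; adjusted p = 0.00120). In the fit of the 8wk groups alone it was not called (1.89 log2; adjusted p = 0.0534). Chac1, which breaks down glutathione, was at 21.5, 9.93, 8.61 and 0.878 CPM against 4.90, 1.97, 1.83 and 2.70 (1.84 ± 0.66 log2; adjusted p = 0.0423). Here ME replicate 4 lay below every control and the other 3 above every control. The Chac1 call was lost without ME replicates 1, 2 or 3 or control replicates 2, 3 or 4 (adjusted p from 0.0583 to 0.194), and with limma-voom (0.205).

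Of the transcription factors at 8wk, Atf3, a stress-induced repressor, was at 8.55, 3.98, 5.14 and 0.334 CPM in ME and at 1.12, 0.105, 0.0698 and 0.107 in controls, a rise of 3.59 ± 0.91 log2 (SE; adjusted p = 0.00610). With the 8wk groups fitted alone Atf3 was not called (3.60 log2; adjusted p = 0.0683). Its 3 lowest controls rest on 4, 4 and 5 counts. In the median library 63.6% of counts from 1 to 20 were even, and whether both mates of a read pair were counted is not given in the sources used here, so such counts may stand for fewer fragments. Nupr1, a small stress-induced chromatin protein, was at 6.22, 4.31, 3.02 and 2.34 CPM against 2.04, 0.734, 1.66 and 1.67 (1.37 ± 0.41 log2; adjusted p = 0.0160), and was not called without ME replicate 1 (0.0655) or control replicate 2 (0.0593). Ddit3, the factor CHOP, was at 6.52, 5.17, 3.89 and 3.87 CPM against 4.23, 2.39, 2.48 and 3.54 (0.62 ± 0.23 log2; adjusted p = 0.0449). Atf5, an activator of mitochondrial stress genes, was at 1.80, 1.78, 0.929 and 0.941 CPM against 1.06, 0.315, 0.471 and 0.751 (1.05 ± 0.39 log2; adjusted p = 0.0481). Both groups overlapped, and both calls were lost without ME replicate 1 or 2 or control replicate 2, 3 or 4 (adjusted p from 0.0591 to 0.165). Both were also lost with no filter, with limma-voom and in the fit of the 8wk groups alone (adjusted p from 0.0529 to 0.129), and with the GC correction Atf5 stood at 0.61 log2 (adjusted p = 0.262). Atf4 was at 205, 105, 102 and 49.1 CPM against 78.4, 75.6, 89.1 and 85.5 and did not pass the test (0.49 ± 0.25 log2; adjusted p = 0.148): 3 ME libraries lay above all controls and replicate 4 below them.

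Cth (ENSMUSG00000028179, chr3:157894248-157925077), which cleaves cystathionine to cysteine, had the largest rise of an enzyme at 8wk. It was at 31.9, 9.48, 10.3 and 1.50 CPM in ME and at 4.59, 0.839, 1.20 and 1.87 in controls, a rise of 2.63 ± 0.61 log2 (SE; adjusted p = 0.00307), with replicate 4 again inside the control range. Cth was not called with the 8wk groups fitted alone (2.64 log2; adjusted p = 0.0815). Slc7a5, the large neutral importer LAT1, was at 438, 297, 323 and 158 CPM against 199, 84.8, 30.3 and 47.0 (1.75 ± 0.60 log2; adjusted p = 0.0346), and its call was lost in 6 fits without 1 library (all but those without ME replicate 4 or control replicate 1; adjusted p from 0.0570 to 0.108). Slc7a11 was likewise highest in replicate 1 of both groups and lowest in ME replicate 4, at 52.5, 23.2, 22.4 and 2.40 CPM in ME against 23.1, 5.69, 6.21 and 4.63, and did not pass the test (1.34 ± 0.64 log2; adjusted p = 0.126). Asns, at 653, 358, 299 and 67.5 CPM against 327, 189, 198 and 202, did not either (0.59 ± 0.42 log2; adjusted p = 0.318).

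The 2 members lower at 8wk were lower at every age. Psat1 was at 724, 558, 515 and 362 CPM against 611, 690, 904 and 746 (-0.45 ± 0.16 log2 (SE); adjusted p = 0.0370), with overlapping groups. Its call was lost in 6 of 8 fits without 1 library (all but those without ME replicate 1 or control replicate 1; adjusted p from 0.0509 to 0.189). Slc6a15 was at 3.92, 3.22, 2.92 and 4.66 CPM against 17.5, 35.6, 30.7 and 23.6, a 7.28-fold drop (-2.86 ± 0.30 log2; adjusted p = 1.44e-06), and this call held in every alternative. It was the member with the smallest adjusted p in any ME comparison.

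**Figure D2:**
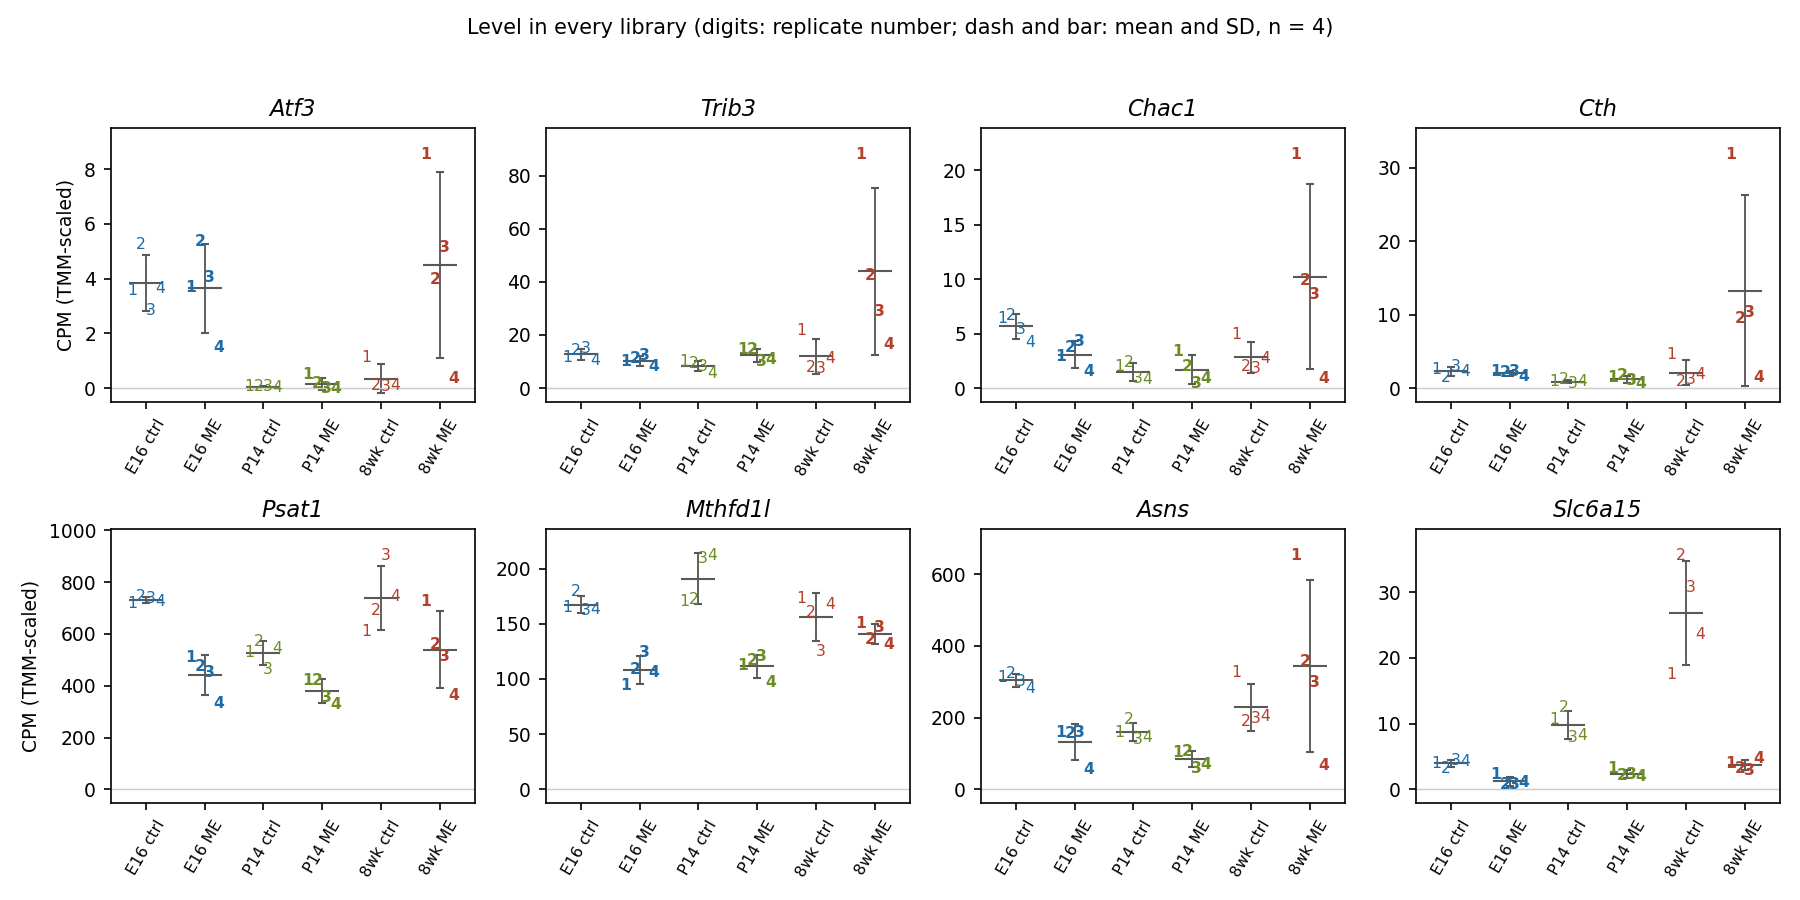
CPM of 8 members in every library, on linear axes that include 0, with digits for replicate numbers, bold for ME, and a dash and bar for the mean and SD of 4 libraries. In 8wk ME replicate 1 is far above the rest for Atf3, Trib3, Chac1 and Cth and replicate 4 is at or near control levels; Mthfd1l and Psat1 separate by group at E16 and P14, and Slc6a15 at all ages.

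The 8wk result rests on how its libraries spread. Replicate 1 was the highest of the 4 ME libraries for 30 of 33 members and replicate 4 the lowest for 28, and control replicate 1 was the highest control for 23. The median over members of the log2 distance from each member's mean was 0.96, 0.38, 0.26 and -0.34 in ME replicates 1 to 4 and 0.37, -0.11, -0.41 and 0.10 in controls. The myeloid sums followed part of this order: neutrophil genes were at 1477, 1293, 907 and 40.1 CPM in ME and 862, 33.3, 18.7 and 22.6 in controls, and monocyte genes at 1028, 1147, 948 and 161 against 868, 172, 198 and 164. No gene of either list was at 0 over an 8wk group. The 9 LSK markers summed to 3147 to 4025 CPM in ME and 2240 to 2690 in controls. Mast cell and basophil sums were 31.2 to 89.3 CPM in ME and 162 to 187 in controls, and erythroid sums 108 to 295 and 282 to 337. B lineage sums were 73.9 to 98.4 CPM in ME and 37.8 to 67.7 in controls, and stromal and endothelial sums (6 genes) 61.9 to 91.2 and 51.9 to 61.2. The part of these cells in the members' rise was not tested. Y-linked genes (Ddx3y, Uty, Kdm5d and Eif2s3y) summed to 269, 18.8, 216 and 5.68 CPM in ME replicates 1 to 4. In control replicates 1 to 4 they summed to 237, 4.88, 2.15 and 0.343 CPM. The sex of the cells thus also differed among these libraries, and its part was not tested either.

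The count of 8 rises became 3 without ME replicate 1 or control replicate 2, 4 without ME replicate 2 or control replicates 3 or 4, and 15 without ME replicate 4. Over all genes 12.6% were higher without ME replicate 1 and 14.2% without ME replicate 4. The members' median log2 fold change was 0.08 without ME replicate 1 and 0.26 with limma-voom, against 0.42 with all libraries in edgeR. The 2 falls became 1, Slc6a15, without ME replicates 2, 3 or 4 or control replicates 2, 3 or 4, and 3 without ME replicate 1 or control replicate 1. Without the 3 libraries that stand apart it became 20, with 2 lower, where 18.1% of all genes were higher and 17.5% lower. That choice removes the lowest ME library and the highest control for most members, and it leaves ME libraries that are all high and controls that are all low in neutrophil genes, so the larger count cannot be told apart from the myeloid difference. Among the 20 were then Asns (1.16 ± 0.23 log2 (SE); adjusted p = 8.11e-04), Mthfd2 (0.74 ± 0.15 log2), Pycr1 (1.45 ± 0.20 log2), Slc7a11 (2.57 ± 0.41 log2), Stc2 (3.05 ± 0.56 log2) and Atf4 (0.72 ± 0.20 log2; adjusted p = 0.00716). Atf3 stood at 5.96 ± 0.76 log2 and Slc6a15 at -3.16 ± 0.33 log2. In a fit of the 8wk groups alone, with no spread shared from the other ages, 2 members were higher and 1 lower. Of the 8 rises Nupr1 kept its call there. Atf3, Atf5, Ddit3, Trib3, Chac1, Cth and Slc7a5 were not called (adjusted p from 0.0534 for Trib3 to 0.136 for Chac1). Among the 18931 genes tested, that fit called 1929 higher and 905 lower, where the main fit called 2684 and 2708.

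**Figure D3:**
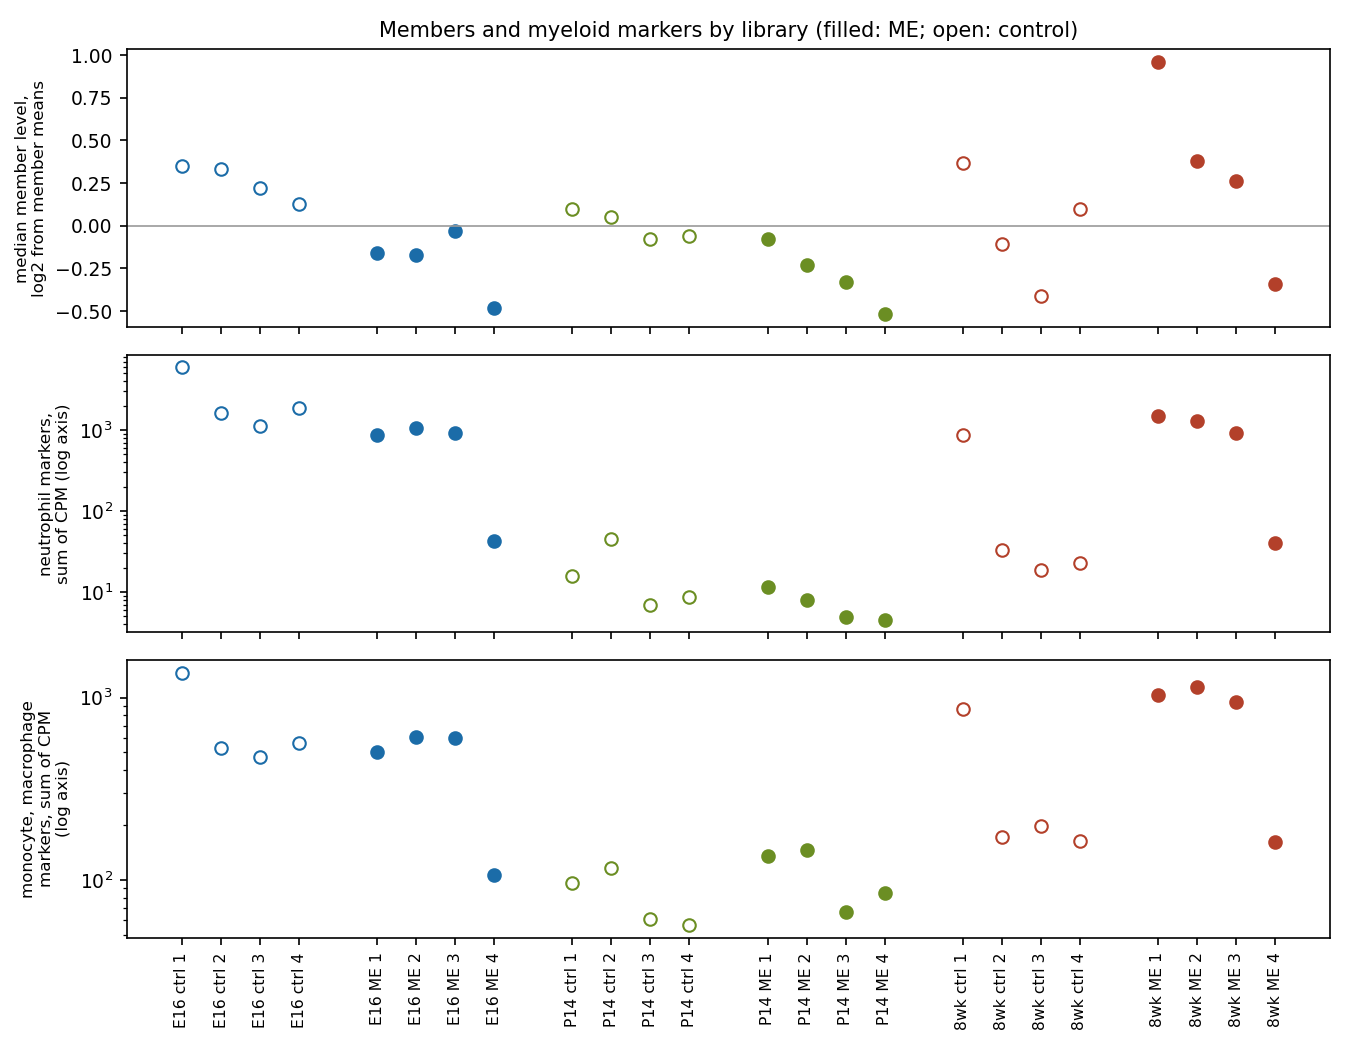
For each of the 24 libraries, the median over the 33 members of log2(CPM + 0.1) minus the member's mean, and the summed CPM of neutrophil and of monocyte and macrophage markers on log axes; filled points are ME and open points control. The 8wk ME libraries run from 0.96 down to -0.34, and E16 ME replicate 4, 8wk ME replicate 4 and 8wk control replicate 1 lie far from the other libraries of their groups in both marker sums, and E16 control replicate 1 is the highest of all 24.

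Whether the ME effect differed between ages was tested as a difference of the log2 fold changes. The members' median difference was 0.63 log2 for 8wk against E16 and 0.61 for 8wk against P14. Over all genes tested it was -0.07 and -0.08. All members are measured in the same libraries, so their values are not independent of each other. The effect was higher at 8wk than at E16 in 30 of 33 members and higher than at P14 in 31. None passed the edgeR test in either: the smallest adjusted p was 0.0519 (Trib3, 2.17 ± 0.54 log2 (SE), 8wk against E16) and 0.0820 (Mthfd1l, 0.63 ± 0.15 log2, 8wk against P14). At an unadjusted p under 0.05 there were 21 and 14 members, where 14.4% and 11.6% of all genes were. DESeq2 called 7 and 2, where it called 3.19% and 1.57% of all genes. By adjusted p edgeR called, over all genes, 0.85% for 8wk against E16 and 0.301% for 8wk against P14. Between P14 and E16, where 0.0211% of genes were called, no member was called by either tool and none had an unadjusted p under 0.05. The comparisons within an age share no library, while the 2 differences from 8wk share all 8wk libraries.

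Single libraries moved these counts. For 8wk against E16, 19 members were called without 8wk ME replicate 4 and 8 without 8wk control replicate 1, where 4.0% and 4.75% of all genes were called. For 8wk against P14 there were 6 and 2, where 1.19% and 2.01% of all genes were called, and 1 without P14 control replicate 1, where 0.328% were. Without the 3 libraries that stand apart, 20 members differed for 8wk against E16 and 15 for 8wk against P14, where 7.29% and 5.34% of all genes were called. Without E16 control replicate 1 as well, 17 differed for 8wk against E16, where 5.23% of all genes were called. Without the 3 libraries the effect of ME on Asns was higher at 8wk than at E16 by 2.11 ± 0.32 log2 (SE; adjusted p = 6.38e-04), that on Mthfd2 by 1.45 ± 0.20 log2, that on Trib3 by 2.79 ± 0.43 log2 and that on Slc7a11 by 3.37 ± 0.55 log2. Slc6a15 differed in the other direction, by -1.51 ± 0.43 log2 (adjusted p = 0.0402). The choice of libraries was made after the values were seen. It took out the lowest 8wk ME library and the highest 8wk control for most members, which by itself enlarges the 8wk effect. These differences are therefore a description, as no member passed the edgeR test with all libraries.

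**Figure D4:**
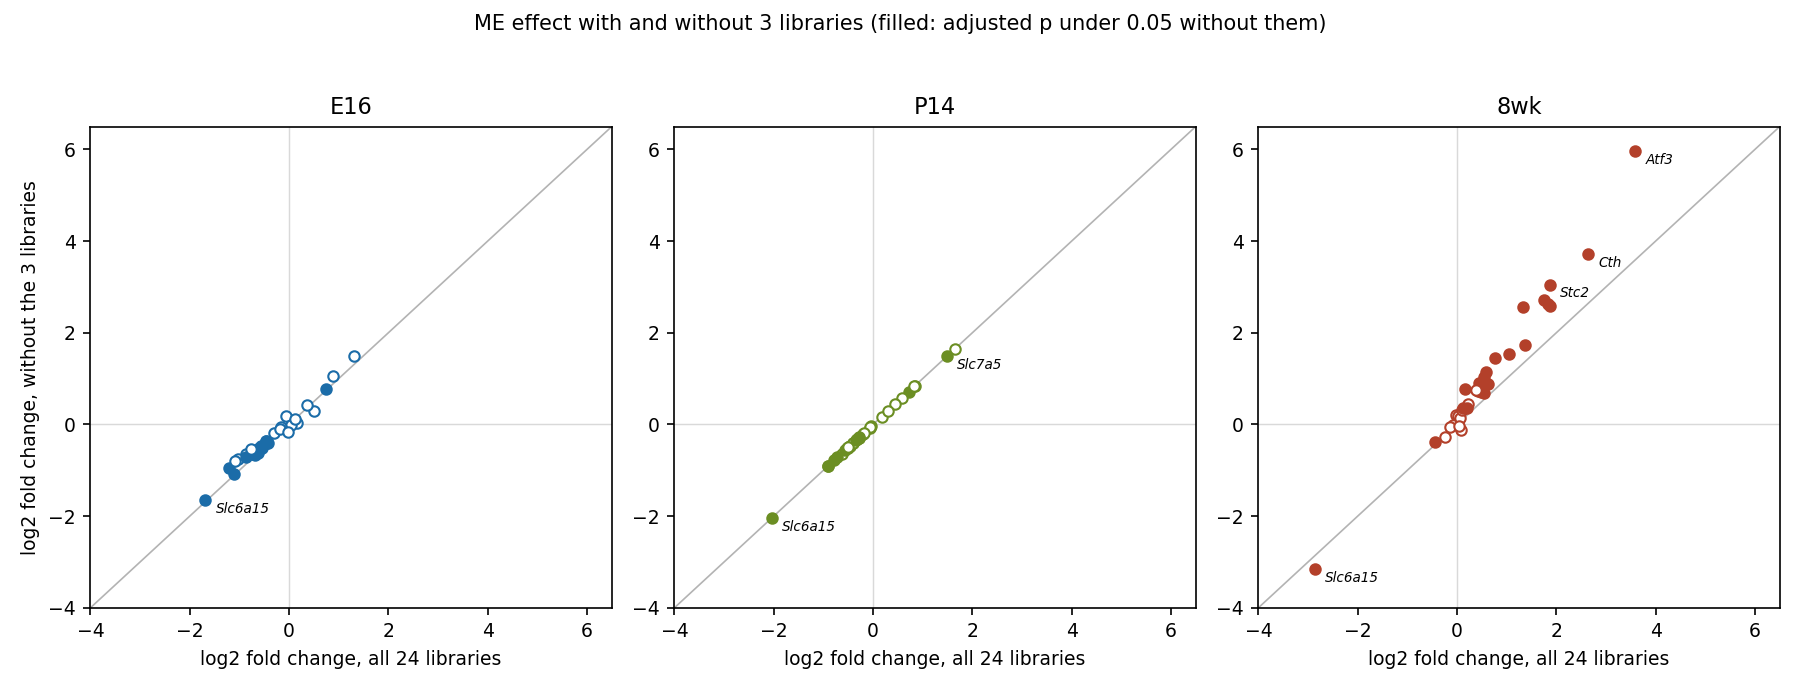
Log2 fold change of ME against control for each member with all 24 libraries (horizontal) and without the 3 libraries that stand apart in myeloid markers (vertical), at E16, P14 and 8wk; filled points have an edgeR adjusted p under 0.05 without them, and the grey line marks equal values. At E16 and P14 the points lie close to the line, and at 8wk Atf3, Cth and Stc2 lie well above it.

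The controls gave the levels in cultured cells without the fusion at the 3 ages. Between 8wk and P14, 3 members were higher and 2 lower, between 8wk and E16 1 was higher and 4 lower, and between P14 and E16 2 were higher and 3 lower, where 12.6%, 23.3% and 15.1% of all genes were called. Each of the 3 totals of 5 fell to 3 on leaving out single controls: P14 replicate 3 or 8wk replicate 3 for 8wk against P14, 8wk replicate 3 for 8wk against E16, and E16 replicates 1, 2 or 3 or P14 replicate 3 for P14 against E16. Slc6a15 rose with age, from 3.94 ± 0.58 CPM at E16 (SD, n = 4) to 9.82 ± 2.11 at P14 and 26.8 ± 7.95 at 8wk. Each step was called, by 1.32 ± 0.28 log2 (SE; adjusted p = 0.00249) and 1.45 ± 0.28 log2 (adjusted p = 0.00273). In ME cells its mean levels were 1.23 ± 0.71, 2.38 ± 0.58 and 3.68 ± 0.78 CPM (SD) in the same order.

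Atf3 fell in controls from 2.85 to 5.26 CPM at E16 to 0.0338 to 0.0602 at P14 (-6.19 ± 1.12 log2 (SE); adjusted p = 6.11e-04), on 2 to 4 counts in each P14 control. It was also lower at 8wk than at E16 (-3.35 ± 0.91 log2; adjusted p = 0.0101). Nupr1 was lower at P14 than at E16 (-1.71 ± 0.45 log2; adjusted p = 0.0110) and higher at 8wk than at P14 (2.21 ± 0.45 log2; adjusted p = 0.00349). Ddit3, Shmt2 and Slc7a1 were lower at 8wk than at E16, by 0.81, 0.69 and 0.68 log2 (SE 0.23, 0.20 and 0.15), and without 8wk control replicate 3 the calls of Ddit3 and Shmt2 were lost (adjusted p = 0.0532 and 0.0514). Slc38a2, the glutamine and alanine transporter SNAT2, was at 557 ± 19.1 CPM at E16 (SD), 733 ± 75.1 at P14 and 482 ± 59.9 at 8wk, with both neighbouring steps called (adjusted p = 0.0350 and 0.00419), and was called in no ME comparison. Its step from E16 to P14 was not called without any 1 of the 4 E16 controls or P14 control replicates 3 or 4 (adjusted p from 0.0529 to 0.126). The neutrophil sums above differed between these control groups by far more, 1120 to 5968 CPM at E16 against 6.97 to 45.6 at P14, and their part in the age differences was not tested.

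Of the 33 members 23 were called in at least 1 ME comparison, 2 in all 3 (Psat1 and Slc6a15) and 10 in none. The 10 were Atf4, Ppp1r15a, Stc2, Lonp1, Pycr1, Gpt2, Slc7a11, Slc1a4, Slc1a5 and Slc38a2. Ppp1r15a, the phosphatase subunit GADD34 that reverses eIF2 alpha phosphorylation, lay between 10.8 and 18.7 CPM in all 24 libraries, with log2 fold changes of 0.05, -0.04 and 0.08. Lonp1, a mitochondrial protease, had log2 fold changes of 0.11 ± 0.33, -0.06 ± 0.33 and 0.02 ± 0.33 (SE) at E16, P14 and 8wk. Slc1a5, the glutamine importer ASCT2, had 0.37, 0.29 and 0.38, with SE of 0.35 each. Stc2, a secreted glycoprotein, had the lowest level of the members, 0.320 CPM per kb of exon.

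Other genes of the pathway, from lists of 8 groups, were read in the same fits. Of all genes tested 13.3% were higher and 8.47% lower at E16, 12.7% and 9.35% at P14, and 14.2% and 14.3% at 8wk. The small counts below, such as those of the eIF2 alpha and mTORC1 lists, lie near these shares. Some genes are in more than 1 list, such as Sesn2 and Ddit4, and Nars and Cars. Of 10 eIF2 alpha kinases and regulators 1 was higher at each age, the ER stress kinase Eif2ak3 (PERK), from 2.10 ± 0.75 to 8.72 ± 3.62 CPM at E16 (SD, n = 4), from 2.49 ± 0.31 to 13.1 ± 5.30 at P14 and from 1.99 ± 0.71 to 12.5 ± 4.70 at 8wk. Its log2 fold changes were 2.05 ± 0.39, 2.39 ± 0.39 and 2.65 ± 0.39 (SE; adjusted p = 6.22e-04, 1.25e-04 and 5.64e-05), and its lowest ME library lay above its highest control at each age. The amino acid sensor kinase Eif2ak4 (GCN2) was lower at P14 (-0.73 ± 0.18 log2; adjusted p = 0.00523), and Eif2s1, eIF2 alpha itself, was lower at 8wk (-0.69 ± 0.17 log2).

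Of 16 other genes reported to respond to ATF4, 8 were higher and 0 lower at 8wk, 2 and 3 at P14 and 0 and 2 at E16. They were read in the same 8wk libraries as the members, so they are not independent of the members' rise. Their counts are given for the fit of all libraries only. Sqstm1 was at 357 ± 42.7 CPM in 8wk ME and 241 ± 34.8 in controls (SD; 0.57 ± 0.11 log2 (SE); edgeR adjusted p = 8.79e-04). Sesn2, an inhibitor of mTORC1, was at 52.3 ± 9.66 CPM in 8wk ME and 27.5 ± 12.1 in controls (SD, n = 4; 0.93 ± 0.21 log2 (SE)). Ddit4, another mTORC1 inhibitor, was at 18.2 ± 6.75 against 7.17 ± 2.25 CPM (1.34 ± 0.30 log2; adjusted p = 0.00215). Cebpb, a myeloid and stress factor, had an SD above its mean in 8wk ME, 5.51 ± 8.50 CPM with a range of 0.167 to 18.1, against 0.0827 ± 0.0617.

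The cytosolic aminoacyl-tRNA synthetases, which charge tRNAs and include ATF4 targets, fell at each age: 17 of 20 at E16, 17 of 20 at P14 and 7 of 20 at 8wk, with 0 higher. Kars, for lysine, went from 306 ± 17.7 CPM in E16 controls to 215 ± 13.8 in ME (SD, n = 4), and its log2 fold changes were -0.51 ± 0.07, -0.57 ± 0.07 and -0.33 ± 0.07 (SE; adjusted p = 4.54e-05, 1.04e-05 and 0.00200). Of 11 mitochondrial chaperones and proteases 7, 7 and 6 fell and 0 rose, with the chaperonin Hspd1 at -0.66 ± 0.09, -0.62 ± 0.09 and -0.60 ± 0.09 log2 (SE). Of 15 folate and one-carbon genes outside the members 4, 5 and 8 fell and 2, 1 and 2 rose. Cytosolic Shmt1 fell by 0.63, 0.71 and 0.73 log2 and cytosolic Mthfd1 by 0.68, 0.82 and 0.56 log2. At 8wk mitochondrial Shmt2, Mthfd2 and Mthfd1l had fitted values of 0.22, 0.42 and -0.15 that did not pass the test. Whether the cytosolic and mitochondrial genes differed was not tested.

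Of 16 ER chaperone and unfolded protein response genes 2 rose and 3 fell at E16, 2 and 4 at P14, and 4 and 0 at 8wk. Edem1, which passes misfolded proteins to degradation, rose at each age by 1.90 ± 0.50, 2.01 ± 0.50 and 2.26 ± 0.51 log2 (SE), while the chaperone Hsp90b1 fell at E16 (-0.44 ± 0.10 log2) and P14 (-0.36 ± 0.10 log2). Of 14 other amino acid transporters 0 rose and 2 fell at E16, 0 and 4 at P14, and 4 and 3 at 8wk. Slc7a6 and Slc43a1 fell at all ages, and Slc7a7, which macrophages express strongly, rose at 8wk from 7.76 ± 2.24 to 19.7 ± 5.69 CPM (SD; 1.34 ± 0.28 log2 (SE)). Of 22 mTORC1 and amino acid sensing genes 4 rose and 1 fell at E16, 1 and 1 at P14, and 4 and 1 at 8wk, with the GTPase Rragb at -0.65 ± 0.18 log2 at E16 and -0.89 ± 0.18 at 8wk.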

How the data were processed

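RNA-seq counts per gene were deposited by the authors as 1 table of raw counts for the 24 libraries. Per the submitters' processing notes reads were handled with STAR 2.7.9a and featureCounts 2.0.3 on GRCm38. The annotation and the strand setting are not given in the sources used here, so reads of overlapping or antisense genes cannot be told apart. The table has 55774 lines and 55487 gene IDs. IDs were named with GENCODE gene models of GRCm38. Sample groups came from the labels.

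edgeR 4.0.16 (R 4.3.3) was used with TMM scaling, filterByExpr (minimum count 10), quasi-likelihood fits of 1 mean per group over all 24 libraries and Benjamini-Hochberg adjustment over 18931 genes, with a threshold of 0.05. It was tested on simulated data. CPM use TMM-scaled library sizes, and standard errors are the log2 fold change over the square root of F. Differences of ME effects are contrasts in the same fit. Alternatives used DESeq2 1.42.0, limma 3.58.1, other scaling, filters, sample sets, a replicate block, a GC correction and single libraries left out. Leaving out the 3 libraries that stand apart, or these and E16 control replicate 1, was added after the data were seen.

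The members and gene lists were chosen with earlier results of these data known. By the rule for named genes, all members are named, those called in an ME comparison have their value in every library of at least 1 comparison, and up to 4 genes of the smallest adjusted p are named from each pathway list. No pair of replicates agreed within sampling noise. Same-numbered ME and control libraries deviated together at P14, with correlations across genes of 0.187, 0.143, 0.137 and 0.232. The fit with a replicate block takes the numbers as pairs there, while the main P14 counts come from the fit without it.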

Additional observations from a re-analysis of the deposited data

Results flagged for a closer look

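In 12 of 198 groups of 4 libraries 1 library lay far from the other 3, by Dixon's ratio of its gap to the group's range. Chance alone gives about 1 in 20 such groups. E16 ME replicate 4 accounted for 5 of them. It held Asns at 56.7 CPM, against 155 to 159 in the other 3 libraries. It held Slc7a5 at 125 CPM against 235 to 247, and Slc3a2 at 168 against 226 to 231. Slc1a4 was at 10.4 CPM against 24.0 to 26.3, and Got1 at 61.3 against 77.8 to 80.4. All 5 were low.

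8wk control replicate 1 accounted for 4, all high. Atf3 was at 1.12 CPM against 0.0698 to 0.107, and Slc7a11 at 23.1 against 4.63 to 6.21. Asns was at 327 CPM against 189 to 202, and Pycr1 at 24.9 against 10.8 to 12.5. The other 3 came from other libraries. Got1 was at 106 CPM in 8wk ME replicate 1, against 70.9 to 75.8. Cebpg was at 67.8 CPM in P14 ME replicate 1, against 83.3 to 86.4. Phgdh was at 1329 CPM in P14 control replicate 3, against 979 to 1001.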

How the results depend on the processing

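Of 48 gene results called over the ME and control comparisons, 24 were called in every alternative and none changed sign. With only the groups compared, members higher numbered 0 at P14 and 2 at 8wk, members lower 12 at P14 and 1 at 8wk, and controls differed in 8 members for 8wk against E16 and 12 for P14 against E16. Over all 18931 genes 2310 and 1929 were higher and 1751 and 905 lower in these fits, and controls differed in 3874 and 3471. With no filter on low counts 0 members were higher at P14 and 4 at 8wk, and with limma-voom 2 and 5. Over all genes, 1827 and 2111 of 38463 were higher with no filter, and 2449 and 2562 of 18931 with limma-voom. With at least 1 CPM in 4 libraries 1 member was called for the difference 8wk against E16, and 8 for the P14 and E16 controls. Over the 14452 genes of that fit 250 and 2732 were called. DESeq2 called 2 members for 8wk against P14, 7 for 8wk against E16 and 8 for the P14 and E16 controls. Of all 18931 genes it called 298, 603 and 3414. With the GC-content correction 1 member was lower at 8wk and 1 differed for 8wk against E16. Over the 18908 genes of that fit 2495 were lower and 259 differed.

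Without the 3 libraries that stand apart, 2 members were higher and 13 lower at P14, and 20 were higher at 8wk. Then 15 differed for 8wk against P14, 20 for 8wk against E16, and 9, 10 and 12 between the controls of 8wk and P14, 8wk and E16, and P14 and E16. Over all 18931 genes 1011 and 1380 were called for these differences and 3630, 5460 and 3692 between the controls. Without E16 control replicate 1 as well, 2 members were higher at E16, 2 at P14 and 20 at 8wk, 12 were lower at P14, 14 differed for 8wk against P14 and 17 for 8wk against E16, and 10 differed between the P14 and E16 controls. Over all 18931 genes 2212, 2768 and 3434 were higher at E16, P14 and 8wk, and 2143 were lower at P14. For the same differences 976 and 991 genes were called, and 3162 between these controls.

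With the replicate block 2 members were higher at E16, 2 at P14 and 5 at 8wk, 1 was lower at 8wk, and 1 differed for 8wk against E16. Over all 18931 genes 2112, 2099 and 2414 were higher, 1919 were lower at 8wk, and 173 differed for 8wk against E16. Same-numbered libraries deviated with correlations of -0.0434, -0.009, -0.0270 and 0.000655 at E16 and of 0.0606, -0.0882, -0.0859 and 0.118 at 8wk, so there the numbers were not taken as pairs. Single members could still follow the numbers. Control Slc7a5 in replicates 1 to 4 was at 170, 94.4, 43.8 and 35.3 CPM at E16 and 199, 84.8, 30.3 and 47.0 at 8wk. Control Cebpg was at 60.3, 51.4, 38.2 and 28.2 CPM at E16, 71.6, 56.7, 37.7 and 30.2 at P14, and 73.3, 65.7, 46.9 and 49.7 at 8wk. Slc1a5 and Lonp1 fell with the number in E16 controls too. With the block Cebpg was still called higher at E16 and P14 (edgeR adjusted p = 0.0218 and 0.0239). With the block Slc7a5 was called higher at E16 (1.54 ± 0.37 log2 (SE), edgeR adjusted p = 0.0134).

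Leaving out single libraries gave ranges of 0 to 2 members higher at E16, 0 to 3 at P14 and 3 to 15 at 8wk, and of 4 to 7 lower at P14 and 1 to 3 at 8wk. Calls over all 18931 genes moved too, at 8wk from 3465 without control replicate 3 to 6595 without control replicate 1. Counts within a ratio of 1.5 of the main count were taken as the same, and no range is given for members lower at E16. That count was not fixed either: Mthfd2, Asns, Slc7a1 and Slc3a2 were not called without E16 ME replicate 4. For differences between ages the ranges were 0 to 6 (8wk against P14) and 0 to 19 (8wk against E16). For controls they were 3 to 6 (8wk against P14), 3 to 6 (8wk against E16) and 3 to 4 (P14 against E16). The cause of these changes was not tested. Members under 1 CPM, such as Atf3 at P14, rest on few counts.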
